A study of Mus musculus with 4 samples.

Results

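The dystrophin-glycoprotein complex was examined through 8 of its genes (Dmd, Utrn, Dag1, Sgca, Sgcb, Sgcd, Dtna and Sspn), chosen by name from a table of 38355 genes counted in mouse heart. All 8 were present in the table and passed the filter on low counts, with 14189 genes tested in all. The left ventricular free wall was sampled from 2 mice carrying the transgene for VSFP2.3 (TG) and from 2 wild-type mice (WT), all untreated and born to the same parents. TG 1 and WT 1 were males of 35 weeks and TG 2 and WT 2 were females of 19 weeks, so that the males form 1 pair of TG and WT mice and the females the other. VSFP2.3 is a fluorescent protein that reports membrane voltage and was targeted to heart muscle cells. The stated aim was to look for cardiac toxicity of the transgene. Neither the promoter driving VSFP2.3 nor the strain background is given in the sources used here. Transcripts of VSFP2.3 were not analysed here, and no gene therefore checks the genotype of a library.

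Dystrophin is the long cytoplasmic protein that ties the actin cytoskeleton of muscle cells to a set of membrane glycoproteins, which in turn bind laminin outside the cell. Dystroglycan spans the membrane at the centre of the complex, the sarcoglycans and sarcospan stabilise it, and dystrobrevin and the syntrophins attach signalling proteins on the inner side. Utrophin is the autosomal relative of dystrophin and can take its place. Loss of several of these proteins causes muscular dystrophy with disease of the heart muscle.

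Dmd lies on chromosome X (82948870 to 85206141 in mm10, plus strand, ENSMUSG00000045103) and spans 2257 kb. Its longest coding transcript is 14.9 kb, the longest of the 8. Utrn, on chromosome 10 (12382188 to 12869365, minus strand, ENSMUSG00000019820), has a longest coding transcript of 12.4 kb, and the other 6 genes have ones of 1.72 to 6.30 kb. Dag1 lies on chromosome 9 (108204634 to 108263958, minus strand) and Sgcb on chromosome 5 (73632749 to 73647790, minus strand). Sgca (94962791 to 94976327) and Sgcd (46896253 to 47988969) are both on the minus strand of chromosome 11. Sspn lies on chromosome 6 (145931641 to 145965223, plus strand). Dmd and Utrn were 71.2% identical over 1939 aligned bases. No transcript of another gene reached 90% identity to any of the 8 over 100 bases, so none of the 8 has a near-identical copy among the annotated transcripts. Sspn and Dtna overlap antisense genes over 1.38% and 0.532% of their exonic length, and the sources used here do not say whether reads were counted by strand.

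The counts add up all transcripts of a gene, which matters for Dmd because it has several starts. The 250 bases before the RefSeq start (GRCm38.p6) are printed for the full-length and a short Dmd transcript, whose reads the table does not separate, and for Dag1 and Sgca, which had the 2 highest levels per kb of annotated exons. RefSeq windows were at hand for 7 of the 8 genes. Capitals mark matches, on either strand, to the E-box (CANNTG), the N-box (TTCCGG), the TATA box (TATAAA), the GC box (GGGCGG), the CArG box and the MEF2 site.
Dmd, full-length start, chrX:82948620-82948869, plus strand: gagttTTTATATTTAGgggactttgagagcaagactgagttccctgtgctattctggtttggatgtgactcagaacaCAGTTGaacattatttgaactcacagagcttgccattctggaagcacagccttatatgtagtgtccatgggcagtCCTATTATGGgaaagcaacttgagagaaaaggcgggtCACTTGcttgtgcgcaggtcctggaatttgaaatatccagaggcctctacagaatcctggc
Dmd, short-transcript start, chrX:85048045-85048294, plus strand: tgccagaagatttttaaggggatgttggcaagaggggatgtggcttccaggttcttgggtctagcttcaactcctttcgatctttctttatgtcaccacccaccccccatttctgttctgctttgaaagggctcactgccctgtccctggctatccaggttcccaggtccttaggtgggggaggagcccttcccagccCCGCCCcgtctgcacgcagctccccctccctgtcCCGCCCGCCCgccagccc
Dag1, chr9:108263959-108264208, minus strand: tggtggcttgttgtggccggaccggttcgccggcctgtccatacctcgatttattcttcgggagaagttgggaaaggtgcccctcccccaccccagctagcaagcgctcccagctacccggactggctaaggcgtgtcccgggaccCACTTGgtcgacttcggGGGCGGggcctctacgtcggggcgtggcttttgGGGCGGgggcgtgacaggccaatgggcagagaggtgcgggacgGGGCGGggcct
Sgca, chr11:94976328-94976577, minus strand: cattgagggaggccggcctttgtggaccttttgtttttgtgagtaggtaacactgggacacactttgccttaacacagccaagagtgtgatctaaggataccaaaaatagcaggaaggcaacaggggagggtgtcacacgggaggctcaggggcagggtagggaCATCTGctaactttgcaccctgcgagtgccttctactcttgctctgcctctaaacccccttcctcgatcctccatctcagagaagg

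The full-length Dmd window held a CArG box, found in 1.47% of 32851 such windows, and a MEF2 site, found in 1.69%, which overlaps the TATA match. It also held 2 of the E-boxes that 66.2% of windows have. The short-transcript window held neither and had 3 GC boxes, as did the Dag1 window, against 32.7% of windows with at least 1. The Sgca window held 1 E-box. TATA matches occur in 12.4% and N-boxes in 12.0% of windows, and the 4 printed windows held no N-box. These matches describe letters only.

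The libraries held 14158440 to 16762713 counts, and their make-up differed in ways that the genotype labels do not follow. A summed list of 6 leukocyte markers stood at 103 CPM (counts relative to the library total, scaled by TMM) in TG 1 and 642 in TG 2, against 760 in WT 1 and 106 in WT 2. WT 2 stood apart in the atrial light chains. Myl4 was at 75.5 CPM there against 0.711 to 1.15 in the other 3, and Myl7 at 71.0 CPM against 0 to 0.304. Sln, also on the atrial list, was at 19.1 CPM in WT 2 against 0 to 0.0663. Nppa of that list went the other way, at 1055 CPM in WT 2 against 1554 to 4223. Bmp10, at 0 CPM in WT 2 against 0.182 to 0.497, was counted too low to give a direction. In these libraries 3 counts equal 0.182 to 0.213 CPM. Protein-coding genes took 89.9% of the counts of WT 2 and 96.7% to 97.4% of those of the other 3. All 10 of 10 cardiomyocyte markers were counted in every library, with the ventricular light chain Myl2 at 7664 and 7826 CPM in TG and 7730 and 7939 in WT. Fast skeletal markers Tnni2, Tnnt3, Myh4, Myh1 and Mylpf were at or below 1.03 CPM in every library. The rest of the skeletal muscle list was high in all libraries, with Acta1 at 1075 to 2295 CPM and Ckm at 2448 to 2761 CPM. Because tissue and not cells was sequenced, fewer cells of a type and less RNA per cell cannot be told apart.

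No transcript of the complex passed the test between TG and WT hearts, the comparison that bears on cardiac toxicity of the transgene. All 8 had an adjusted p of 1.00 (quasi-likelihood test of edgeR, Benjamini-Hochberg adjustment over all genes), and 0% of the 14189 tested genes were called. Their log2 fold changes (TG over WT) lay between -0.10 and 0.18, with a median of 0.09 against -0.01 over all tested genes. The count above 0 was 7 of 8, where 47.5% of tested genes were above 0, though Sgcd and Dtna were at 0.00 to 2 decimals and their sign turned in at least 1 alternative. It was 4 without TG 1, 5 without WT 2 and 6 without TG 2 or without WT 1. It was also 6 without a filter on low counts and 5 with the trend on exonic length removed. The median over the 8 was -0.016 without TG 1 and 0.037 with that trend removed. No member had an unadjusted p below 0.05, which 0.698% of tested genes had. Of the variance in log2 CPM over tested genes, 12.8% lay between TG and WT and 23.9% between the 35-week males and 19-week females. The remaining 63.3% lay between TG 1 with WT 2 and TG 2 with WT 1. Both of the latter count as spread in this test, so the absence of calls does not show equal levels. Long transcripts were slightly higher in TG, with a median of 0.13 over 323 protein-coding genes of at least 10 kb, beside values of 0.18 for Dmd and 0.09 for Utrn. With the exonic length trend removed, these 2 were at 0.07 and 0.0062.

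Dmd, which encodes dystrophin, was at 682 and 479 CPM in TG 1 and TG 2, against 560 and 463 CPM in WT 1 and WT 2. The 35-week males were the higher mouse of each genotype and the groups overlapped. The log2 fold change was 0.18 ± 0.23 (TG over WT, fitted value ± SE, 2 mice per genotype throughout), with a 95% confidence interval from -0.40 to 0.77. Utrn, which encodes utrophin, was at 379 and 268 CPM in TG 1 and TG 2, against 254 and 352 CPM in WT 1 and WT 2. TG 1 and WT 2 were high and the other 2 low, so the groups overlapped. Its log2 fold change was 0.09 ± 0.26, and it was -0.18 without TG 1 and -0.12 without WT 1. The Dmd fold change was -0.09 without TG 1.

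Dag1, which encodes the precursor of both dystroglycan subunits, was at 514 and 515 CPM in TG 1 and TG 2, against 450 and 506 CPM in WT 1 and WT 2. Both TG values lay above both WT values, though TG 1 and TG 2 exceeded WT 2 by little. The log2 fold change was 0.11 ± 0.14. Sspn, which encodes the tetraspanin-like protein sarcospan, was at 218 and 210 CPM in TG 1 and TG 2, against 200 and 204 CPM in WT 1 and WT 2. It too was higher in both TG mice, with a log2 fold change of 0.08 ± 0.13.

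Among the sarcoglycans, Sgca, the muscle-restricted alpha subunit, was at 101 and 93.2 CPM in TG 1 and TG 2, against 105 and 102 CPM in WT 1 and WT 2. It was the only 1 of the 8 with a negative fold change, at -0.10 ± 0.14. Sgcb, the beta subunit, was at 220 and 240 CPM in TG 1 and TG 2, against 219 and 212 CPM in WT 1 and WT 2, and the log2 fold change was 0.09 ± 0.14. TG 2 was high and the other 3 lay close together. Sgcd, the delta subunit, was at 91.9 and 81.3 CPM in TG 1 and TG 2, against 94.6 and 78.3 CPM in WT 1 and WT 2. Here the males were high in both genotypes and the log2 fold change was 0.00 ± 0.17.

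Dtna lies on chromosome 18 (23415135 to 23659715, plus strand) and encodes the alpha-dystrobrevin that binds dystrophin inside the cell. It was at 61.2 and 81.3 CPM in TG 1 and TG 2, against 82.4 and 60.1 CPM in WT 1 and WT 2. TG 2 and WT 1 were high and the other 2 low, the reverse of Utrn. The log2 fold change was 0.00 ± 0.24. Non-overlapping genotypes were seen for Dag1, Sgca, Sgcb and Sspn, 4 of 8 members, against 21% of all tested genes. The gaps were narrow, with Sgcb at 219.8 CPM in TG 1 and 218.6 in WT 1, and Sgca at 100.7 in TG 1 and 102.5 in WT 2. Dag1 was at 514.1 CPM in TG 1 and 505.7 in WT 2, and Sspn at 210.1 in TG 2 and 204.4 in WT 2. The fold changes of these 4 were within -0.10 and 0.11. The 95% confidence intervals of the 8 fold changes reached from -0.61 (Dtna) to 0.77 (Dmd), so changes of up to that size are within what 2 mice per genotype allow. Without WT 2, the library that stood apart, the fold changes were 0.05 for Dmd, 0.35 for Utrn, 0.19 for Dag1, -0.11 for Sgca, 0.07 for Sgcb, -0.13 for Sgcd, -0.21 for Dtna and 0.10 for Sspn, and no gene was called.

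**Figure D1:**
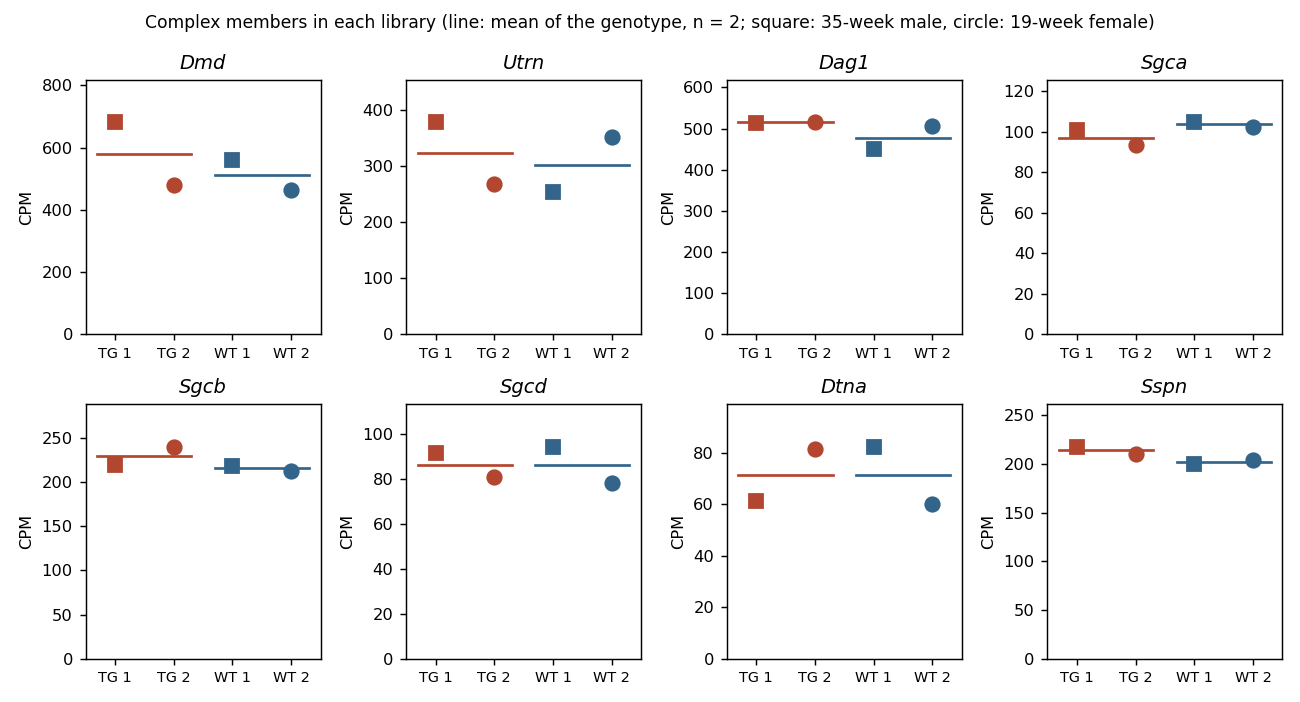
Level of each complex member in CPM in the 4 libraries, TG in red and WT in blue, with squares for 35-week males, circles for 19-week females and a line at the mean of each genotype (n = 2). Dag1, Sgca, Sgcb and Sspn are nearly level, whereas Utrn is high in TG 1 and WT 2 and Dtna in TG 2 and WT 1.

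**Figure D2:**
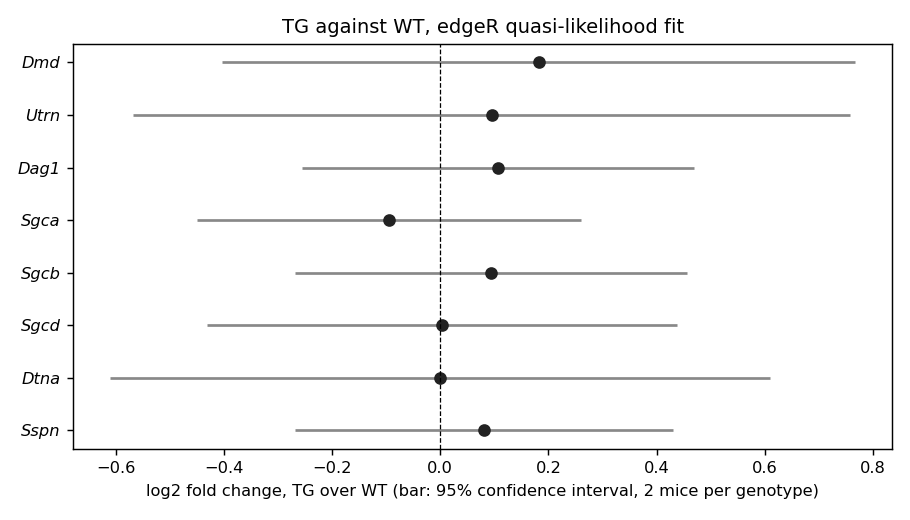
Log2 fold change of TG over WT for each member from edgeR's quasi-likelihood fit, with bars for the 95% confidence interval (2 mice per genotype). Every interval includes 0, and the points lie between -0.10 and 0.18.

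Compared over all 4 hearts irrespective of genotype, 5 of the 8 genes varied less than the median tested gene with a mean of at least 50 CPM. A median leaves equal numbers of genes on either side, so that count is near the share over all such genes. The ratio of the highest to the lowest library was 1.09 for Sspn, 1.12 for Sgca, 1.13 for Sgcb, 1.14 for Dag1 and 1.21 for Sgcd. The median of this ratio over the 3289 tested genes with a mean of at least 50 CPM was 1.25. Of them, 17.5% had a smaller ratio than Sgca and 41.2% a smaller ratio than Sgcd, which was thus not unusually steady. Dtna, Dmd and Utrn varied more, with ratios of 1.37, 1.47 and 1.49, and 79.9% of the genes had a smaller ratio than Utrn. The steadier 5 encode the membrane glycoproteins and sarcospan, and the other 3 encode dystrophin, utrophin and dystrobrevin, which lie on the inner side of the membrane. That division was not tested, and Dmd and Utrn also have the longest coding transcripts of the 8. Outside the 8, the inner-side syntrophin gene Sntb2 ran only from 29.8 to 32.7 CPM. Sntb1 and the dystrobrevin gene Dtnb, counted lower, ran from 2.88 to 4.07 and from 3.07 to 4.51 CPM. Closest in pattern were Dag1 and Sspn, with a root-mean-square difference of 0.05 in centred log2 CPM over the 4 libraries, and most unlike were Utrn and Dtna, at 0.46.

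Levels per kb of annotated exons put Dag1 first, at 78.1 ± 4.88 CPM per kb (SD over the 4 libraries of both genotypes). Sgca and Sgcb followed at 57.8 ± 2.87 and 55.0 ± 2.98 CPM per kb, and their ranges over libraries overlapped. Sspn stood at 41.7 ± 1.53 CPM per kb, apart from its neighbours in that order. Dmd and Utrn, which have the longest coding transcripts of the 8, were at 22.9 ± 4.21 and 18.3 ± 3.60 CPM per kb with overlapping ranges. Below them came Sgcd at 10.5 ± 0.966 and Dtna at 4.21 ± 0.726 CPM per kb. Per kb of the longest coding transcript the values were 36.6 ± 6.72 CPM per kb for Dmd, 35.3 ± 3.26 for Sgcd and 25.3 ± 4.98 for Utrn. On that scale Sgcd overlapped Dmd and lay above Utrn, and Dmd overlapped Sspn, so these places depend on the length used. Dag1 stayed highest and Dtna lowest on both.

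**Figure D3:**
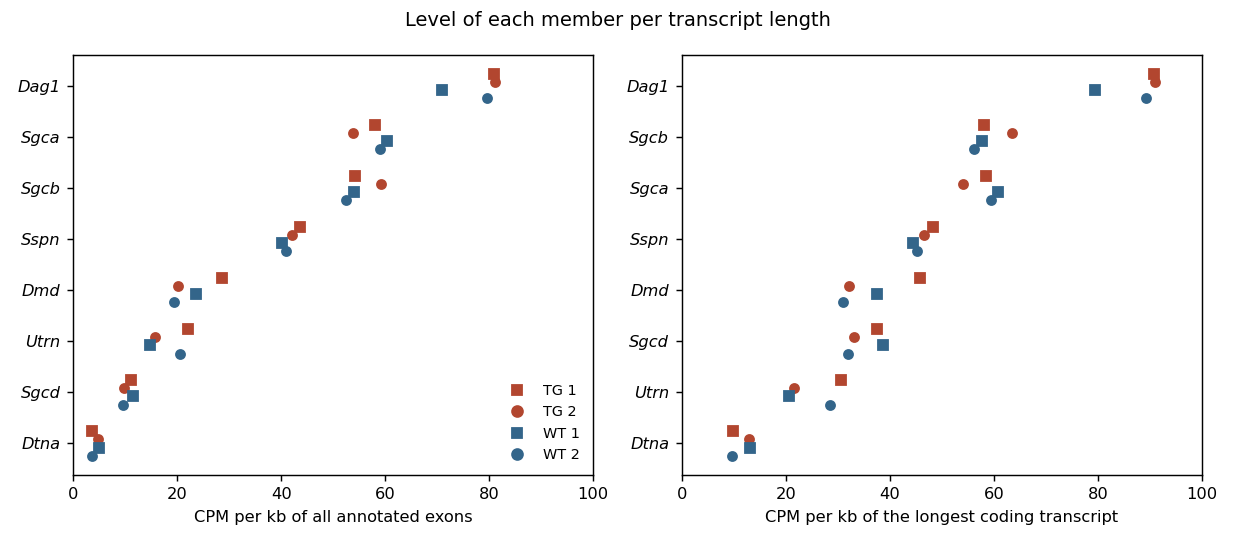
Level of each member in CPM per kb in each library (TG red, WT blue, square 35-week male, circle 19-week female), per kb of all annotated exons on the left and of the longest coding transcript on the right. Dag1 is highest and Dtna lowest on both scales, while Sgcd moves up when only the coding transcript is counted.

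The utrophin and dystrobrevin transcripts had opposite TG to WT ratios within the pairs, though neither difference passed the edgeR test. Utrn had a TG to WT ratio of 1.49 in the 35-week males and of 0.761 in the 19-week females. For Dtna the ratios were 0.742 in the males and 1.35 in the females. A ratio above 1 in 1 pair and below 1 in the other was found for 3 of the 8 members (Utrn, Sgcd and Dtna) and for 64.7% of all tested genes. For Sgcd these ratios were 0.972 in the males and 1.04 in the females. Dmd, Dag1, Sgcb and Sspn had ratios above 1 in both pairs and Sgca below 1 in both.

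The difference between the pairs in log2 TG to WT ratio (males minus females) was fitted with the interaction of genotype and pair as the only term, since a full model leaves no residual degrees of freedom. It equals 2 times the log2 ratio of TG 1 and WT 2 over TG 2 and WT 1, and treats genotype and pair as spread. The same split was known from earlier results of these data, so it is a description of where the members fall in it. Utrn had a difference of 0.97 ± 0.22 (95% confidence interval from 0.42 to 1.52, unadjusted p = 0.00486, adjusted p = 0.0994 by edgeR). Dtna had one of -0.87 ± 0.20 (-1.36 to -0.37, unadjusted p = 0.00515, adjusted p = 0.103 by edgeR). Neither passed the threshold, and the other 6 lay between -0.17 and 0.28. Thus 0 of 8 members were called, against 2.72% of tested genes (0.352% higher and 2.37% lower), 5 of 8 were above 0, against 50.9%, and 2 of 8 had an unadjusted p below 0.05, against 16.2%.

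By DESeq2 Utrn passed the threshold (adjusted p = 0.0271, with adjusted p-values of 0.0271 to 0.0994 over the scalings, filters and tools tried), and 4.95% of tested genes did so. Dtna did not pass by any of them (0.0844 to 0.131). With 1 library left out the difference stayed at 0.87 to 1.08 for Utrn and at -0.89 to -0.84 for Dtna, with adjusted p-values above the threshold in each case.

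**Figure D4:**
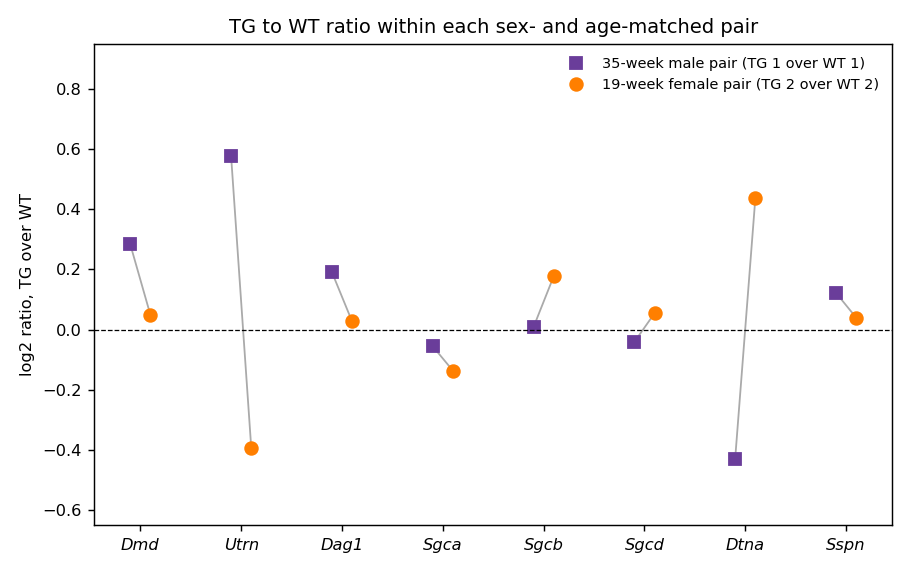
Log2 ratio of TG over WT within the 35-week male pair (squares) and the 19-week female pair (circles) for each member, with a line joining the 2 values of a gene. Utrn lies at 0.58 in males and -0.39 in females and Dtna at -0.43 and 0.44, while the other 6 lie between -0.14 and 0.28.

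Several features of the libraries moved with this split. Long transcripts had higher TG to WT ratios in the male pair than in the female pair. Of 323 tested protein-coding genes with a coding transcript of at least 10 kb, 86.1% had a positive difference, with a median of 0.55 and a range from -0.13 to 1.56 between the 10th and 90th percentiles. Utrn at 0.97 lay inside that range, and so did Dmd at 0.28, whose coding transcript is longer. With the trend on transcript length removed, Utrn stood at 0.40, Dmd at -0.37 and Dtna at -1.15. The trend had a Spearman's rho of 0.301 across 12827 protein-coding genes, which share the same 4 libraries. Over these genes the TG over WT fold change had a rho of 0.293 with transcript length, so a length trend was not particular to this split. The summed cardiomyocyte markers were at 216948 and 144463 CPM in TG 1 and TG 2, against 138781 and 184586 CPM in WT 1 and WT 2. Of this the very long Ttn took 118036 and 63193 CPM in TG and 61587 and 96818 CPM in WT. Myh6, Ryr2, Tnni3 and Myl3 were also higher in both TG 1 and WT 2 than in the other 2 libraries. Tnnt2, Actc1, Myl2, Atp2a2 and Mb were not, so the list did not follow the split as a whole. The leukocyte list ran opposite to the summed cardiomyocyte markers. Of its 6 markers, 5 (Ptprc, Cd74, Cd68, Csf1r and Cd3e) were lower in both TG 1 and WT 2 than in the other 2 libraries. Cd79a, the other one, was at or below 0.265 CPM throughout. Nppa, a natriuretic peptide gene, was also low in TG 1 and WT 2, at 1554 and 4223 CPM in TG 1 and TG 2, against 3703 and 1055 CPM in WT 1 and WT 2. The part of these differences in the values of Utrn and Dtna was not tested.

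**Figure D5:**
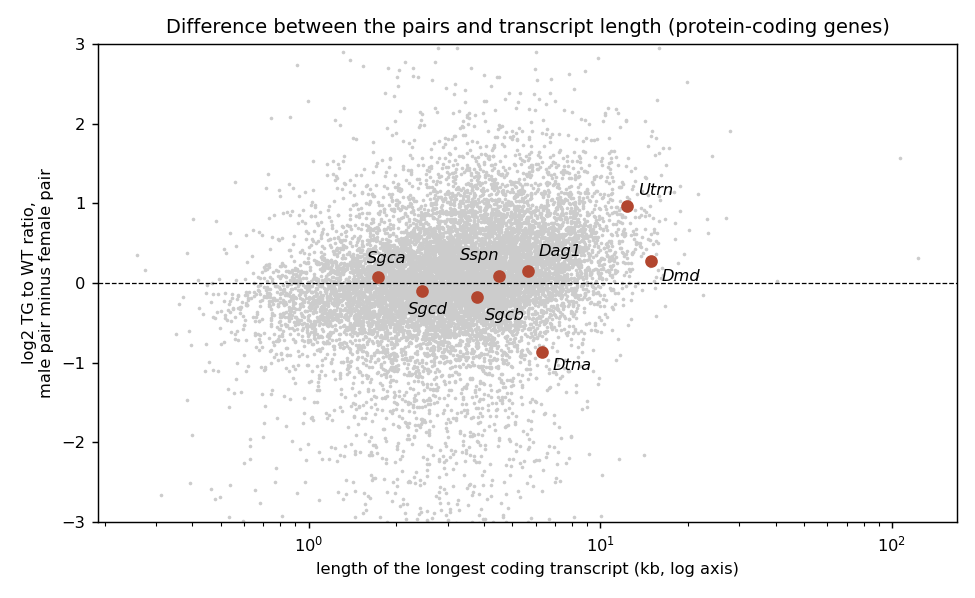
Difference between the pairs in log2 TG to WT ratio (males minus females) against the length of the longest coding transcript in kb (log axis) for protein-coding genes in grey and the members in red, with 459 genes beyond 3 in either direction not drawn. Utrn lies among the long genes above 0, Dtna below the bulk of genes of its length, and the other members near 0.

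In the 35-week males against the 19-week females, Dmd had the largest difference of the 8. It was at 682 CPM in TG 1 and 560 in WT 1, against 479 in TG 2 and 463 in WT 2, and both males lay above both females. The log2 fold change (males over females) was 0.40 ± 0.15, with an unadjusted p of 0.0459 and an adjusted p of 1.00 by edgeR, so it was not called. Sgcd followed at 0.23 ± 0.12 and the other 6 lay between -0.08 and 0.07. None of the 8 was called, against 0.0282% of tested genes, 6 of 8 were above 0, against 51.9%, and 1 of 8 had an unadjusted p below 0.05, against 3.62%. Leaving out 1 library gave 0.25 to 0.53 for Dmd. Sex and age cannot be told apart here, as they changed together.

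Genes that work with the complex were read from 4 lists. Among other subunits, 5 of 8 were tested (Sgcz, Sntg1 and Sntg2 were not), 4 had positive values and 1 a negative TG over WT value, and 0 passed the test. The median log2 fold change was 0.14. In the difference between the pairs 0 of 5 were positive, against 50.9% of tested genes, with a median of -0.51 against 0.01. In that comparison 0 were called, against 2.72%. Low counts entered here, with 5 to 15 per library for Drp2, 45 to 67 for Sntb1 and 46 to 68 for Dtnb. The median is the value of Sntb1 (-0.51 ± 0.51), and the better counted Sgce and Sntb2 were at -0.10 and -0.15. Sgce, the epsilon-sarcoglycan found in many tissues, had a TG over WT log2 fold change of -0.07 ± 0.16. Sntb1 and Sntb2 encode beta-syntrophins, adaptors that bind dystrophin and dystrobrevin, and stood at 0.16 ± 0.31 for Sntb1 and 0.00 ± 0.14 for Sntb2. Dtnb, the beta-dystrobrevin, was at 0.14 ± 0.33, and the dystrophin-related Drp2, counted at under 1 CPM, at 0.89 ± 0.56.

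Of 9 matrix ligands, all tested, 6 had positive and 3 negative values and 0 passed, with a median log2 fold change of 0.08. Lama2, the laminin chain of the muscle basement membrane, was at 0.10 ± 0.21, Agrn (agrin, a heparan sulphate proteoglycan) at -0.21 ± 0.27 and Bgn (biglycan) at 0.34 ± 0.16. In the difference between the pairs, 8 of 9 were positive, against 50.9% of tested genes, with a median of 1.00 against 0.01. An unadjusted p below 0.05 by edgeR was found for 7 of 9, against 16.2%, and 1 passed the adjusted threshold, against 2.72%. That was Hspg2, the basement membrane proteoglycan perlecan, at 930 and 486 CPM in TG 1 and TG 2, against 416 and 897 CPM in WT 1 and WT 2. Its difference was 2.04 ± 0.26 (adjusted p = 0.0205 by edgeR), and the call was lost without TG 2 (adjusted p = 0.0983 by edgeR) and without WT 1 (adjusted p = 0.231 by edgeR). Hspg2 has a coding transcript of 14.2 kb. Among tested protein-coding genes with one of at least 10 kb, 86.1% had a positive difference, with a median of 0.55. The part of transcript length in the values of the matrix ligands was not tested.

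All 18 listed genes of dystroglycan glycosylation were tested, with 7 positive and 11 negative values, a median log2 fold change of -0.04 and 0 calls. Large, the enzyme that builds the laminin-binding sugar chain, was at 0.05 ± 0.14. Srd5a3 and Dpm3, which serve the making and use of dolichol-linked sugars, were at -0.29 ± 0.21 and -0.24 ± 0.21. Between the pairs, 9 of the 18 were positive, against 50.9% of tested genes, with a median of -0.01 and 0 calls, against 2.72%. An unadjusted p below 0.05 by edgeR was found for 0 of the 18, against 16.2%.

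Of 21 linked membrane and cytoskeletal genes 18 were tested, with 13 positive and 5 negative values, a median log2 fold change of 0.04 and 0 calls. Ank2, an ankyrin that anchors membrane proteins, had the smallest p, at 461 and 359 CPM in TG and 285 and 286 CPM in WT (log2 fold change 0.52 ± 0.17, unadjusted p = 0.0316, adjusted p = 1.00 by edgeR). Des, the intermediate filament desmin, was at -0.30 ± 0.14, Cav3, the muscle caveolin, at -0.24 ± 0.14, and the laminin receptor gene Itga7 at 0.04 ± 0.15. Nos1, the nitric oxide synthase recruited by syntrophin in muscle, had 7 and 3 counts in TG and 17 and 8 counts in WT and was not tested, nor were Krt8 and Krt19. Between the pairs 13 of 18 were positive, against 50.9% of tested genes, with a median of 0.51. An unadjusted p below 0.05 by edgeR was found for 7 of 18, against 16.2%, and 1 passed the adjusted threshold, against 2.72%. That was Plec, the cytolinker plectin with a coding transcript of 15.5 kb, at 1082 and 621 CPM in TG 1 and TG 2, against 533 and 928 CPM in WT 1 and WT 2. Its difference was 1.60 ± 0.28 (adjusted p = 0.0496 by edgeR), and the call was lost with another scaling, with limma-voom and without TG 1, TG 2 or WT 1. With the trend on transcript length removed it stood at 0.94. The part of transcript length in the values of this list was not tested.

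The genes nearest to Dmd in centred log2 CPM over the 4 libraries were Ninl, Eef2k, Arhgap20, Lrrc4c and Ss18l1, with root-mean-square differences of 0.01 to 0.02. Eef2k, for example, was at 47.3 and 33.8 CPM in TG and 38.8 and 31.8 CPM in WT. Nearest to Utrn were Wbscr17, Map1b, Acadl, Pdk2 and Eps15l1, also at 0.01 to 0.02, with Acadl at 738 and 539 CPM in TG 1 and TG 2, against 508 and 704 CPM in WT 1 and WT 2. With 4 libraries, such closeness describes these mice only.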

How the data were processed

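The authors deposited raw read counts per Ensembl gene for 4 total-RNA libraries, 1 per mouse, and, for the same genes, a normalized signal. Stranded Illumina total-RNA libraries were sequenced on a HiSeq2000, per the labels' protocols. The submitters' processing notes name the build mm10 and the tools DESeq, HTSeq (0.6.1), STAR (2.3.0), FastQC (0.10.0) and CASAVA (1.8.2), without their order. Dividing each library's counts by its own factor (0.917 to 1.08) gives the deposited signal, which was used only for that comparison of scalings.

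Counts were fitted over the whole table with edgeR 4.0.16 in R 4.3.3. Genes were kept by filterByExpr (minimum count 10), library sizes were scaled by TMM, and the threshold was an adjusted p of 0.05. Alternatives were limma-voom (limma 3.58.1), DESeq2 1.42.0, other scalings, no filter, a replicate block, removal of length trends and leaving out each library. The fits were also run on simulated counts with the same dispersion (spread) for every gene. These had no split of the libraries beyond the changes put in, so that run does not speak to the split of the real libraries. The libraries held 14158440 to 16762713 counts. Within-pair log2 ratios use a prior count of 2. P-values describe the spread among these mice. Positions and lengths came from GENCODE vM21, of the same assembly, and 99.2% of tested genes had a length.

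All 8 members were named, with 10 further genes of the complex or its pathway whatever their values, called genes of 4 lists, the 2 of smallest p per list, and the 5 genes nearest to Dmd and Utrn. Members and lists were chosen with earlier results of these data known. Some listed genes are not reported here and are in no count over a list.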

Additional observations from a re-analysis of the deposited data

Results flagged for a closer look

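Hspg2 (perlecan) and Plec (plectin), neighbours of the complex, had TG to WT ratios that differed between the 35-week male and the 19-week female pair by the interaction fit, at 2.04 for Hspg2 and 1.60 for Plec (log2 ratio of the males minus that of the females, edgeR). Both were higher in TG 1 than in WT 1 and lower in TG 2 than in WT 2. The Plec call was lost with size factors by relative log expression, with limma-voom and without TG 1, TG 2 or WT 1, and the Hspg2 call without TG 2 or WT 1. With the trend on transcript length removed, Plec stood at 0.94 and Hspg2 at 1.41. The same leukocyte and transcript-length values moved with them as with Utrn, and their part was not tested.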

How the results depend on the processing

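Between TG and WT, 0 genes were called by edgeR under each scaling and filter and by limma-voom, 3 by DESeq2 (2 higher, 1 lower) and 0 to 6 when 1 library was left out, the 6 without WT 1. The 4 calls for males against females became 7 without a filter, 34 by DESeq2 and 0 to 7 when 1 library was left out. For the difference between the pairs, 386 calls (50 higher, 336 lower) became 908 without a filter (264 higher, 644 lower), 703 by DESeq2 (218 higher, 485 lower) and 40 to 347 when 1 library was left out, the 40 without WT 1 and 109 without TG 2. At an unadjusted p below 0.05 between TG and WT there were 99 genes by edgeR as reported, 98 with relative log expression, 76 with TMM on protein-coding genes, 168 without a filter and 95 by limma-voom. Causes were not tested.

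Same-numbered mice shared sex, age and parents, and the number was not a term of the main fit. Their deviations from the genotype means correlated at -0.45. With 2 mice per genotype, this value reflects the split of TG 1 and WT 2 from TG 2 and WT 1. It does not show that matched mice are unpaired, and the within-pair ratios above use the matching. With the number as a replicate block, 0 genes were called between TG and WT (61 at an unadjusted p below 0.05), Sntb2 turned to -0.000993, and no call of a member changed. Sntb2 was also at -0.000298 by limma-voom, and Dtna at -0.000920 without a filter. The median over members was 0.037 with the trend on exonic length removed. For the difference between the pairs, Utrn was at 0.98 by DESeq2 and Plec at 1.61 with size factors by relative log expression and 1.60 by limma-voom. With the trend on transcript length removed, an alternative chosen after seeing the data, Dmd was at -0.37, Utrn at 0.40, Dtna at -1.15, Hspg2 at 1.41 and Plec at 0.94.

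Leaving out 1 library at a time gave these ranges of the TG over WT log2 fold change: Dmd -0.094 to 0.41, Utrn -0.18 to 0.35, Dag1 0.025 to 0.19, Sgca -0.15 to -0.041, Sgcb 0.029 to 0.16, Sgcd -0.13 to 0.15, Dtna -0.22 to 0.25, Sspn 0.056 to 0.11, Agrn -0.50 to 0.16, Ank2 0.33 to 0.69, Bgn 0.24 to 0.46, Cav3 -0.31 to -0.16, Des -0.39 to -0.20, Dpm3 -0.37 to -0.13, Drp2 0.47 to 1.51, Dtnb -0.11 to 0.35, Hspg2 -0.43 to 0.77, Itga7 -0.026 to 0.11, Lama2 -0.16 to 0.32, Large 0.015 to 0.093, Plec -0.23 to 0.68, Sgce -0.11 to -0.024, Sntb1 -0.069 to 0.43, Sntb2 -0.069 to 0.068, Srd5a3 -0.37 to -0.22. The count of positive members ran from 4 to 6 and their median from -0.016 to 0.097. For males over females the ranges were Dmd 0.25 to 0.53, Utrn -0.29 to 0.29, Dag1 -0.18 to 0.0099, Sgca 0.0026 to 0.14, Sgcb -0.13 to 0.045, Sgcd 0.20 to 0.25, Dtna -0.21 to 0.26, Sspn -0.052 to 0.072. For the difference between the pairs they were Dmd -0.33 to 0.78, Utrn 0.87 to 1.08, Dag1 -0.031 to 0.36, Sgca -0.086 to 0.25, Sgcb -0.30 to -0.033, Sgcd -0.33 to 0.13, Dtna -0.89 to -0.84, Sspn -0.0086 to 0.17, Hspg2 1.82 to 2.27, Plec 1.37 to 1.83. With 1 library left out, the lone mouse of its genotype is assumed to vary like the others.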
